A study of Mus musculus with 24 samples.

Results

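The pair miR-221 and miR-222 was followed across the soleus muscles of 12 male mice. Its members were the assays named mmu-miR-221 and mmu-miR-222 on real-time PCR cards that held 584 microRNA assays, and each name matched 1 well of card A. Both members were among the 268 assays that entered the test. The animals formed 4 groups of 3, all 12 weeks old. MCK-PPARa mice carry a transgene for the nuclear receptor PPARα and MCK-PPARb mice one for PPARβ, and the labels describe both transgenes as specific to muscle. MCK stands for the muscle creatine kinase gene, whose promoter is active in skeletal muscle and heart. NTGa and NTGb are the wild-type, non-transgenic littermates of the MCK-PPARa and MCK-PPARb mice. No treatment is named. Whether a line goes back to a single founder is not given in the sources used here, and the receptors themselves were not measured by these cards.

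A microRNA guides a silencing complex to messenger RNAs that pair with its seed, the bases near its 5′ end. miR-221 and miR-222 share a seed and are processed from neighbouring hairpins of a common primary transcript. They are known for repressing the cell cycle inhibitor Cdkn1b (p27) and the receptor Kit, they are abundant in vessel walls, and in muscle they are known to decline as dividing myoblasts become fibres. Whole soleus holds fibres, vessels, nerve and blood cells, and in such bulk RNA fewer cells of a type and less RNA per cell cannot be told apart.

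The mature sequences, from RefSeq on GRCm38.p6, show why the members are treated as a pair and how far they differ. Capitals mark the seed, bases 2 to 8.
mmu-miR-221-3p: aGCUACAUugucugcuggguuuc
mmu-miR-222-3p: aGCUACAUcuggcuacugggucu
Both are 23 bases long. Their first 8 bases are identical, and 11 positions match when they are set side by side from the 5′ end without a gap. Beyond base 8, the longest run they share is CUGGGU, which starts at base 15 of miR-221 and at base 16 of miR-222. Of 1679 mature mouse names in the RefSeq table, 3 have this seed: the pair itself and mmu-miR-1928, which the cards do not hold. The assay names carry no arm. In older naming the unmarked name stood for the arm that is now called 3p, and that arm is shown here.

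The hairpins, with the mature 3p arm in capitals, show where the measured strand lies.
Mir221: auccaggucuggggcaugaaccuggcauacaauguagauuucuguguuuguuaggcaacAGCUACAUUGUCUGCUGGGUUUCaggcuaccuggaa
Mir222: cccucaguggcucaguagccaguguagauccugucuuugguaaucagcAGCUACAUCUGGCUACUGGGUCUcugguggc
Mir221 lies at chrX:19146294-19146388 and Mir222 at chrX:19146893-19146971, both on the minus strand, with 504 bases between them (GRCm38.p6). The males of this study carry a single X chromosome. Read on the minus strand, Mir222 comes before Mir221.

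The level of a microRNA was read as a cycle threshold (Ct), the number of PCR cycles needed for a set fluorescence, which falls as template rises. A microRNA was counted as detected at a Ct under 35. Between 248 and 296 microRNAs were detected per animal. The mean Ct of the card A microRNAs detected in every animal ran from 27.6 to 28.4, and that of U6 snRNA from 19.5 to 20.1. NTGb replicate 2 had the lowest of both and the most microRNAs detected. The muscle microRNAs miR-133a (median Ct 17.4), miR-206 (18.4), miR-1 (20.9), miR-133b (20.9), miR-486 (23.9) and miR-499 (27.9) were detected in 12 of 12 animals. Slow-fibre miR-208b was detected in 9 (median Ct 32.1). Each microRNA of other organs was detected in fewer. Liver miR-122, epithelial miR-205 and islet miR-375 were each detected in 1 animal, neural miR-124 and epithelial miR-200b in 3 and neural miR-9 in 8.

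miR-222 was the abundant member of the pair and miR-221 the scarce one. miR-222 had a Ct under 35 in 12 of 12 animals, with a mean Ct of 25.2. That was the 30th lowest mean among the 164 mouse-named assays of card A with a Ct in every animal. miR-221 was detected in 11 of 12 animals, with a mean Ct of 32.3 and the 133rd place. Assays may differ in efficiency, so these places describe the wells and are no ranking of molecules.

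In NTGa, the Ct of miR-221 was 32.3 in replicate 1, 34.4 in replicate 2 and 36.4 in replicate 3. The last of these was the only Ct of the pair at or above 35. In MCK-PPARa it was 31.9, 32.2 and 30.8. All 3 transgenic animals thus had a lower Ct than every NTGa animal, although MCK-PPARa replicate 2 came close to NTGa replicate 1. In NTGb the Ct was 32.3, 30.6 and 33.7. In MCK-PPARb it was 30.4, 30.3 and 32.8, so replicates 1 and 2 were lower than every NTGb animal and replicate 3 lay among them. The number of animals with miR-221 under Ct 35 was 2 of 3 in NTGa and 3 of 3 in each other group. Under Ct 32 there were 0 in NTGa, 2 in MCK-PPARa, 1 in NTGb and 2 in MCK-PPARb.

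The Ct of miR-222 was 25.4, 25.3 and 25.5 in NTGa and 25.5, 25.4 and 25.4 in MCK-PPARa. These 6 animals lay close together. In NTGb it was 25.3, 24.1 and 25.4, with replicate 2 more than a cycle below the others of its group. In MCK-PPARb it was 24.7, 24.9 and 24.9. As read, without any reference, the NTGb group therefore overlapped its counterpart NTGa, while every MCK-PPARb animal had a lower Ct than the 6 animals of the PPARa line.

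**Figure D1:**
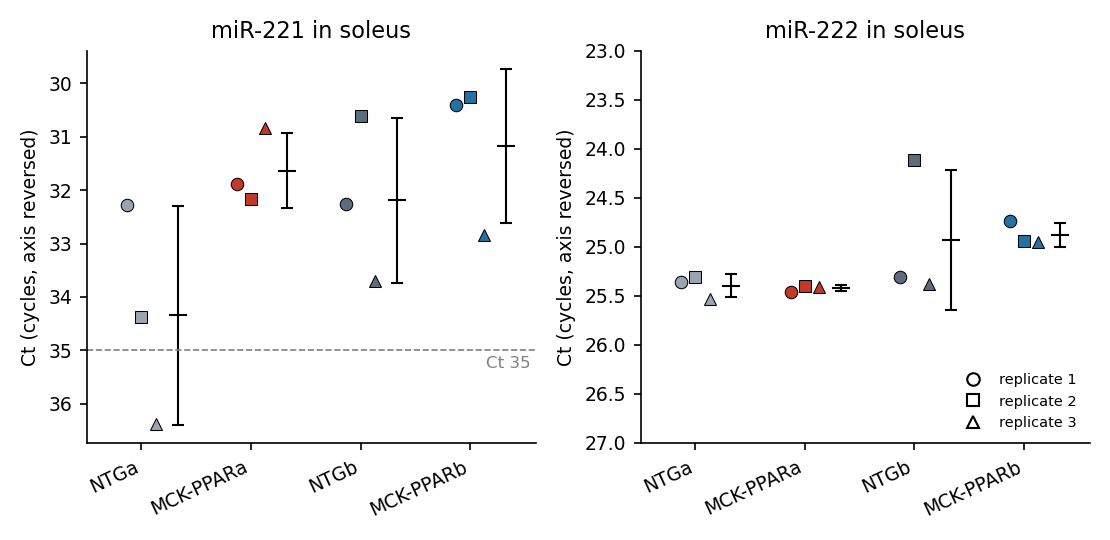
Ct of miR-221 (left) and miR-222 (right) in each of 12 soleus samples, in cycles on a reversed axis, so that more template lies higher. Symbols mark the replicate, the bar beside each group its mean ± SD (n = 3) and the dashed line Ct 35. miR-221 spreads from 30.3 to 36.4, while 11 of the 12 animals have miR-222 between 24.7 and 25.5 and NTGb replicate 2 has 24.1.

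For comparisons, each Ct was subtracted from the mean Ct of the card A microRNAs detected in all 12 animals, which gives a level on the log2 scale. Levels under the detection floor of -6.56 were set to it. For miR-221 this applied to NTGa replicate 2, whose level as read was -6.71, and to NTGa replicate 3, at -8.47, so the NTGa mean is an upper value. The mean level of miR-221 was -3.08 ± 1.40 (SD, n = 3) in MCK-PPARb, -3.66 ± 0.65 in MCK-PPARa, -4.06 ± 1.11 in NTGb and -5.88 ± 1.19 in NTGa. In this order no step between neighbours passed the test. The steps were 0.58 (limma adjusted p = 0.764), 0.40 (adjusted p = 0.798) and 1.82 (adjusted p = 0.303). The first and second were smaller than the SD of the groups. The last, from NTGb to NTGa, was larger than the SD of either, and its 95% interval, -3.61 to -0.02 for NTGa minus NTGb, did not reach 0 before adjustment (limma unadjusted p = 0.0475), although the animals of these groups overlapped. Both transgenic groups stood above both control groups in the mean.

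Against its littermates, miR-221 in MCK-PPARa was 4.65-fold higher, a log2 difference of 2.22 (SE 0.81, 95% interval 0.42 to 4.01), higher in 3 of 3 transgenic animals than in every control. It did not pass the test over all assays (limma unadjusted p = 0.0201, adjusted p = 0.217). Of the 268 assays, 2 had a larger positive difference and 23 a lower p. Neither member was called at an adjusted p under 0.05, where 2.24% of all assays were called. Groups that do not overlap, with the transgenic group higher, were found for 14.9% of all assays, so this pattern was not rare in the comparison. Against the controls of the other line, the log2 difference of miR-221 was 0.40.

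The level of miR-222 in MCK-PPARa was 2.55 ± 0.058 (SD, n = 3) against 2.39 ± 0.024 in NTGa. The log2 difference was 0.16 (SE 0.19, 95% interval -0.26 to 0.58, limma adjusted p = 0.759), or 1.12-fold. Levels were 2.60, 2.57 and 2.49 in the transgenic animals and 2.41, 2.36 and 2.39 in the controls, so these groups did not overlap either. The difference was close to the median of all 268 assays in this comparison, 0.12. With U6 snRNA as reference it was -0.025 and without scaling -0.023, so its direction was not settled.

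In MCK-PPARb, miR-221 was 1.97-fold higher than in NTGb, a log2 difference of 0.98 (SE 0.81, 95% interval -0.82 to 2.77, limma adjusted p = 0.787). Levels were -2.30, -2.25 and -4.70 in MCK-PPARb and -3.87, -3.05 and -5.26 in NTGb, and the groups overlapped through replicate 3 of MCK-PPARb. Without that animal the value was 1.79 (adjusted p = 0.534), and without NTGb replicate 3 it was 0.38 (adjusted p = 0.992). Without MCK-PPARb replicate 1 or 2, or NTGb replicate 2, it was 0.58, 0.56 or 1.48. In this comparison limma called 0 of 268 assays (0% of all), and 23 (8.58%) had an unadjusted p under 0.05. Neither member of the pair was among those 23.

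miR-222 stood at a like level in both groups of the PPARb line when scaled to the mean of the card. It was 3.21 ± 0.15 (SD, n = 3) in MCK-PPARb and 3.20 ± 0.22 in NTGb, with a log2 difference of 0.01 (SE 0.19, 95% interval -0.41 to 0.43, limma adjusted p = 0.982). The levels were 3.37, 3.07 and 3.18 against 3.09, 3.45 and 3.06, and the groups overlapped. With U6 snRNA as reference the difference was 0.32 (adjusted p = 0.629), where the median of all assays was 0.33.

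The effects of the transgenes were compared directly. The effect on miR-221 was larger in the PPARa line by 1.24 (SE 1.15, 95% interval -1.30 to 3.78, limma adjusted p = 0.773; 0.43 without MCK-PPARb replicate 3 and 1.92 without NTGa replicate 1), and that on miR-222 by 0.15 (SE 0.27, adjusted p = 0.892). Neither was called, where 1.12% of all assays were. The difference for miR-222 took a negative sign with the endogenous controls (-0.032) or U6 snRNA (-0.35) as reference and without scaling (-0.078). The mean of the effects in both lines, a comparison added after these values were seen, was 1.60 for miR-221 (SE 0.57, 95% interval 0.33 to 2.86). It missed the threshold (limma adjusted p = 0.235), and 1 other assay had a larger positive mean effect. For miR-222 the mean effect was 0.09 (SE 0.13, adjusted p = 0.766), and 2.24% of all assays were called.

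**Figure D2:**
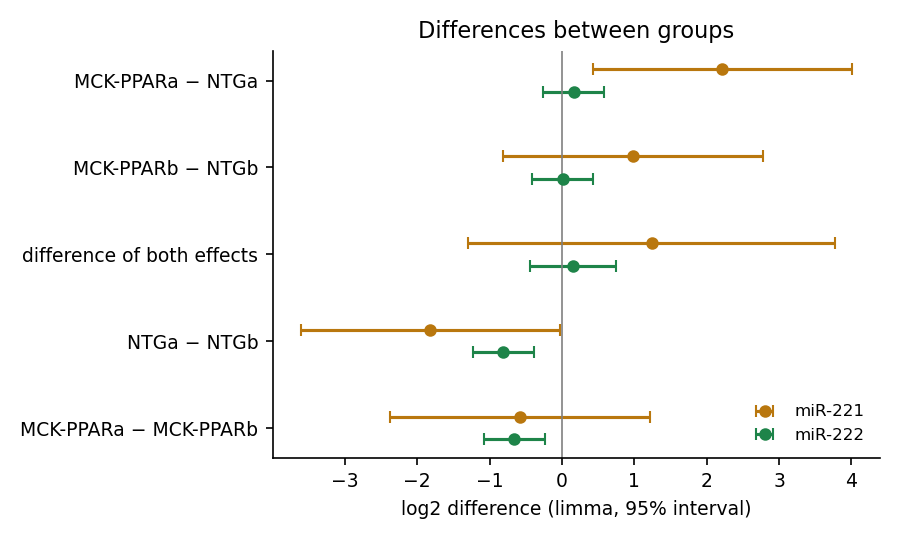
Log2 difference of miR-221 and miR-222 in 5 comparisons of group means, each point with its 95% interval from limma over 12 animals. The intervals of miR-221 are several times as wide as those of miR-222, and that for MCK-PPARa against NTGa, 0.42 to 4.01, lies above 0 although its adjusted p is 0.217.

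The ratio of the pair needs no reference, since both wells lie on the same card. It was taken as the Ct of miR-222 minus that of miR-221, with a Ct above 35 set to 35, and read as a log2 ratio of miR-221 to miR-222. miR-221 had the higher Ct in 12 of 12 animals. The log2 ratio was -6.92, -9.07 and -9.47 in NTGa, the last a bound, and -6.43, -6.77 and -5.43 in MCK-PPARa. It was -6.95, -6.50 and -8.32 in NTGb and -5.67, -5.32 and -7.89 in MCK-PPARb. The ratio was therefore higher in every MCK-PPARa animal than in every NTGa animal, and the groups of the PPARb line overlapped.

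On average the ratio was -8.49 ± 1.37 (SD, n = 3) in NTGa, -7.26 ± 0.94 in NTGb, -6.29 ± 1.39 in MCK-PPARb and -6.21 ± 0.70 in MCK-PPARa. If template doubles in each cycle and both assays yield the same signal per copy, these means correspond to 358, 153, 78.3 and 74.1 copies of miR-222 for each copy of miR-221. The 358 is a lower bound, since the Ct of miR-221 in NTGa replicate 3 was set to 35. Since the efficiencies of the assays are unknown, only changes of this ratio are compared. It was 2.27 higher in MCK-PPARa than in NTGa, or 4.84-fold (two-sided exact permutation p = 0.1, the smallest that 3 animals against 3 allow). In MCK-PPARb it was 0.97 higher than in NTGb (exact permutation p = 0.4). The difference between these changes was 1.31 (exact permutation p = 0.435 over 400 relabellings within the lines). With 1 animal left out, the change in the PPARb line ran from 0.44 (without NTGb replicate 3) to 1.77 (without MCK-PPARb replicate 3). The difference between the changes ran from 0.51 (without MCK-PPARb replicate 3) to 2.09 (without NTGa replicate 1). Over 5 such comparisons, which include NTGa against NTGb (-1.23) and MCK-PPARa against MCK-PPARb (0.08), the adjusted p ran from 0.5 to 0.9.

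**Figure D3:**
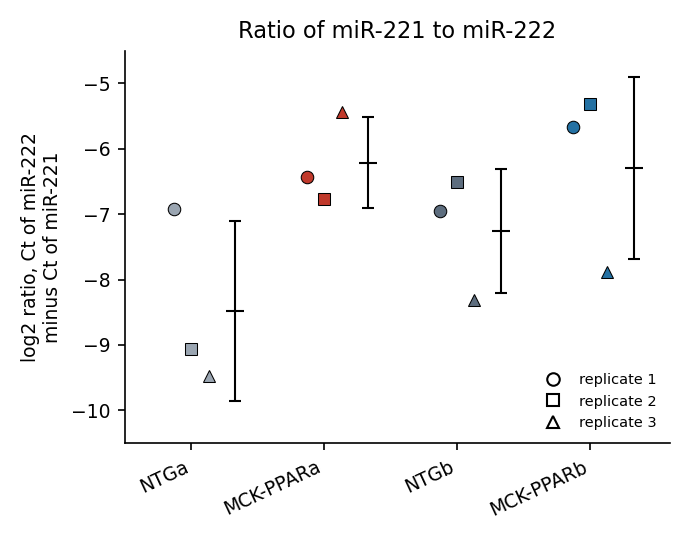
Log2 ratio of miR-221 to miR-222 in each animal, taken as the Ct of miR-222 minus the Ct of miR-221; the bar beside each group is the mean ± SD (n = 3). The 3 MCK-PPARa animals lie between -6.77 and -5.43, above NTGa at -9.47 to -6.92, while the groups of the PPARb line overlap.

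Scaled to the mean of the card, miR-222 differed more between the lines than between transgenic mice and littermates. Its level was 2.36 to 2.60 in the 6 animals of the PPARa line and 3.06 to 3.45 in the 6 of the PPARb line, so the lines did not overlap. In NTGa it stood 0.81 below NTGb (SE 0.19, 95% interval -1.23 to -0.39), the 7th lowest p of 268 assays, and just missed the threshold (limma adjusted p = 0.0532), where 1.87% of all assays were called. With U6 snRNA this difference was -0.26 (adjusted p = 0.537) and without scaling -0.47 (adjusted p = 0.424). In MCK-PPARa it stood 0.66 below MCK-PPARb (SE 0.19, adjusted p = 0.104; 2.99% of all assays called). Averaged over transgenic and control animals, a comparison added after these levels were seen, miR-222 was 0.73 higher in the PPARb line, or 1.66-fold (SE 0.13, 95% interval 0.44 to 1.03, limma adjusted p = 0.00954). In that comparison 5.22% of all assays were called, and 1.49% were higher without overlap. For miR-221 the line difference was 1.20 (SE 0.57, adjusted p = 0.212).

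The size of this line difference depended on the reference. With the endogenous small RNA controls the lines stayed apart, at -0.78 to -0.63 against -0.28 to 0.20, and the difference was 0.70 (limma adjusted p = 0.032). With U6 snRNA it was 0.43 (adjusted p = 0.14) and without scaling 0.50 (adjusted p = 0.159), neither called. In both, 4 of the 6 PPARb-line animals lay above all PPARa-line animals and NTGb replicates 1 and 3 did not. Changing to U6 moved the median of all assays in this comparison from -0.03 to -0.38. The line of a mouse and anything bred, collected or run by line cannot be told apart here. Among marker microRNAs of vessels and blood, 4 of 5 assayed markers of smooth muscle and fibroblasts were tested. Their summed log2 level was 5.27 to 5.52 in the PPARa line and at most 5.21 in the PPARb line. Abundant markers weigh most in this sum, and miR-145 had the highest mean level of the 4 in every group. The share of all assays that were lower without overlap in the PPARb line was not counted. Within that list miR-143, miR-145 and miR-199a-3p stood at -0.40, -0.34 and -0.30 in the PPARb line against the PPARa line, and miR-214 at 0.35, none of them called. The summed level of endothelial miR-126-3p and miR-126-5p overlapped between lines (8.86 to 9.18 and 8.34 to 9.43). Of the 7 microRNAs that mark the soleus or its fibres, 2 were called higher in the PPARb line, as miR-222 was, where 5.22% of all assays were called in either direction. The slow-fibre microRNA miR-208b stood 2.81 higher (limma adjusted p = 0.00654), with MCK-PPARa at the floor, and miR-499 stood 2.47 higher (adjusted p = 6.11e-05). The mean level of miR-499 was -0.23 in NTGa, -3.89 in MCK-PPARa, 0.46 in NTGb and 0.38 in MCK-PPARb. The part of these markers in the difference of miR-222 was not tested.

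**Figure D4:**
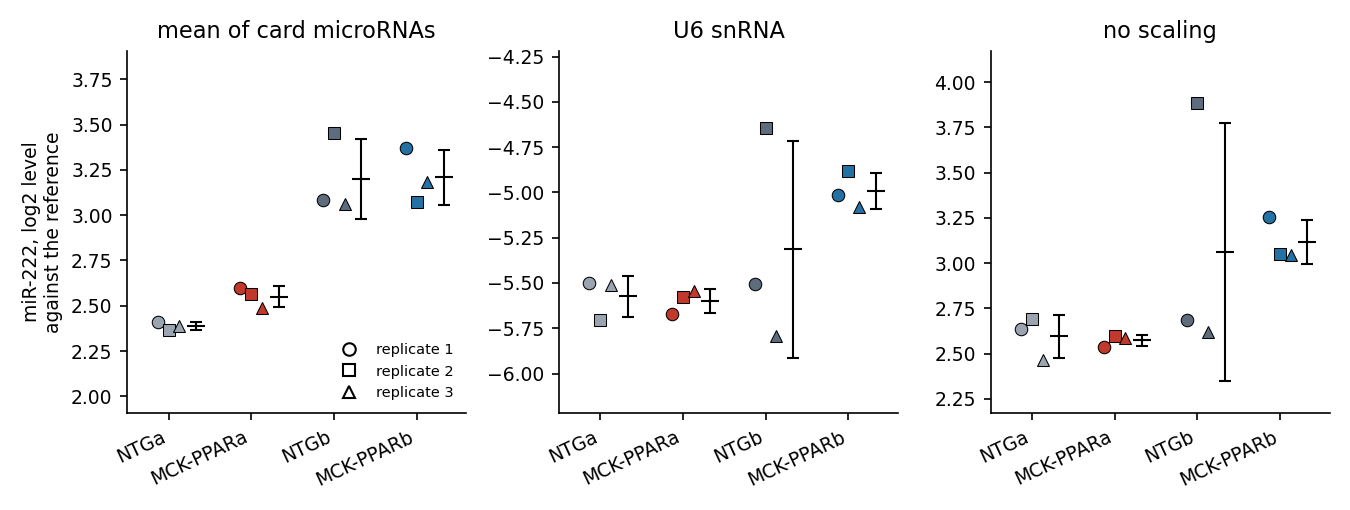
Log2 level of miR-222 in each animal against the mean of the card A microRNAs (left), against U6 snRNA (middle) and without scaling (right, the Ct turned so that more template lies higher); each panel spans 2 log2 units and the bars are mean ± SD (n = 3). With the mean of the card the PPARa line (2.36 to 2.60) lies below the PPARb line (3.06 to 3.45), and with U6 or no scaling NTGb replicates 1 and 3 do not lie above the PPARa line; with U6, replicate 3 is the lowest of all animals.

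The members were also unlike in how much animals of a group varied. Scaled to the mean of the card, the SD within groups was 1.12 on the log2 scale for miR-221 and 0.14 for miR-222. The latter depended on the scaling. As read, the SD of the Ct of miR-222 was 0.71 in NTGb, and 0.12, 0.032 and 0.12 in NTGa, MCK-PPARa and MCK-PPARb. Spread rises with Ct, so each was set beside assays of like Ct. Among 68 other assays with a mean Ct of 31 to 34 the median was 0.74 over all in that range, and 3 exceeded miR-221. Among 37 other assays with a mean Ct of 24 to 27 the median was 0.23, and 35 exceeded miR-222. Each member had a single well per animal. On card B, where many assays had 2 wells, the wells of an assay differed by a median of 0.134 cycles at Ct 24 to 26, 0.381 at Ct 30 to 32 and 0.755 at Ct 32 to 35, with 90th percentiles of 0.466, 1.01 and 2.05 cycles. The differences of miR-222 between transgenic mice and littermates were 0.16 and 0.01. The larger lay above the median and below the 90th percentile of the well-to-well differences at Ct 24 to 26. Those percentiles rest on only 34 pairs of wells. These measures are unlike, since the former are between means of 3 animals and the latter between single wells. The part of well-to-well error in the differences of miR-222 was not tested.

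**Figure D5:**
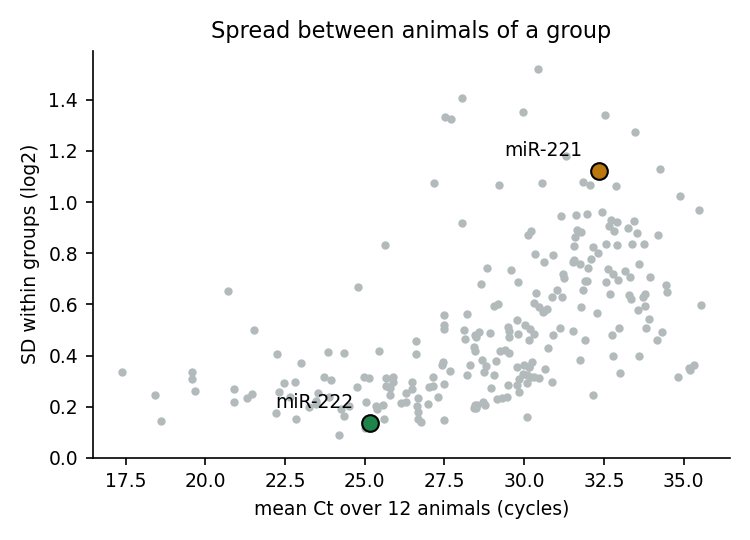
SD of the log2 level between animals of a group (vertical) against mean Ct over 12 animals (horizontal) for the 245 tested assays with a Ct in every animal. miR-221, at a Ct of 32.3 and an SD of 1.12, lies near the top of the assays of its Ct, and miR-222, at 25.2 and 0.14, near the bottom of its own.

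Within a line, the members were compared across animals. In the PPARa line the levels of miR-221 and miR-222 were related with Pearson's r at 0.73 and Spearman's rho at 0.81 (n = 6, exact permutation p = 0.122 and 0.0722; adjusted over 2 lines 0.244 and 0.144). There r was 0.94 without the 2 animals farthest from the median of miR-222, MCK-PPARa replicates 1 and 2. That leaves the NTGa animals, 2 of them at the floor for miR-221, and MCK-PPARa replicate 3, so it does not show that the relation is robust. In the PPARb line r was 0.44 and rho 0.31 (n = 6, exact permutation p = 0.353 and 0.564), and r turned to -0.27 without the 2 farthest animals, so that relation rests on them. The first relation includes the 2 NTGa values at the floor. It also includes the step between NTGa and MCK-PPARa, which did not overlap for either member, so a relation within groups cannot be read from it. Within MCK-PPARa, replicate 3 had the highest miR-221 (-2.94) and the lowest miR-222 (2.49). No pooled value is given, because the lines formed separate clusters for miR-222.

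As a description, the microRNAs whose pattern was most like that of each member were looked up among mouse-named assays detected in all 12 animals. For miR-221, over the 11 animals in which it was detected and 194 assays, these were miR-532-5p (Pearson r 0.84), miR-339-5p (0.78), miR-674* (0.72), miR-690 (0.67) and miR-22 (0.66). miR-222 itself came 23rd of 194, at 0.48. With group means removed these values were 0.76, 0.84, 0.63, 0.71 and 0.78, and 0.37 for miR-222. For miR-222, over 12 animals and 193 assays, they were miR-138 (0.82), miR-17 (0.78), miR-193b (0.76), miR-709 (0.75) and miR-188-5p (0.68). With group means removed they were 0.050, 0.29, -0.53, 0.70 and 0.24, so most of that likeness lay between groups. The points of each correlation share an RNA extract and the scaling of its card.

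miR-532-5p, the nearest to miR-221, had a mean level of 0.26 in MCK-PPARa, -0.73 in NTGa, 0.16 in MCK-PPARb and -0.22 in NTGb. miR-339-5p had -3.31, -5.54, -4.11 and -4.77 in the same order of groups, so both stood higher in the transgenic mean of each line, as miR-221 did. miR-138, the nearest to miR-222, had 0.28, -0.15, 1.05 and 1.02, with both groups of the PPARb line higher. These assays were picked for their likeness over the same animals, so a resemblance of their group means follows largely from that choice.

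The pair was set beside lists of microRNAs of the tissues in which it is known. Of the vessel wall, miR-126-3p stood at 0.27 and miR-126-5p at -0.85 in MCK-PPARa against NTGa, and at -0.10 and -0.37 in MCK-PPARb against NTGb. The smooth muscle and fibroblast microRNAs miR-143, miR-145, miR-199a-3p and miR-214 were at 0.07, 0.08, 0.07 and 0.28 in MCK-PPARa and at 0.08, 0.24, -0.14 and -0.69 in MCK-PPARb. None of these 6 passed in either line, where 2.24% of all assays were called in MCK-PPARa and 0% in MCK-PPARb. The value of miR-221 was 2.22 in MCK-PPARa and 0.98 in MCK-PPARb, neither of them called. The part of these 6 in the values of the pair was not tested.

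Of the 15 microRNAs known to change as myoblasts become fibres, 15 were tested and 0 were called in either line by limma. At an unadjusted p under 0.05 there were 2 in MCK-PPARa, miR-486 (0.68) and miR-322 (1.00), and 1 in MCK-PPARb, miR-29b (-0.68). Over all assays 16.4% and 8.58% had such a p. The median was 0.23 in MCK-PPARa, where that of all assays was 0.12, and 0.09 in MCK-PPARb, where that of all was 0.02. The fibre microRNAs miR-1, miR-133a, miR-133b and miR-206 were at -0.11, -0.080, 0.13 and 0.36 in MCK-PPARa and at 0.25, -0.21, 0.14 and 0.094 in MCK-PPARb. Of 7 microRNAs that mark the soleus or its fibres, 1 was called in these comparisons of transgenic mice with littermates, the slow-fibre microRNA miR-499, which fell by 3.66 in MCK-PPARa. Over all assays 2.24% were called in MCK-PPARa and 0% in MCK-PPARb.

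Of blood cells, the leukocyte microRNAs miR-142-3p, miR-223, miR-150, miR-155 and miR-146a were at 0.62, 0.35, -0.11, 0.24 and 0.21 in MCK-PPARa. In MCK-PPARb they were at 0.15, -0.11, -0.31, -0.19 and -0.42. Erythroid miR-451 was at 0.58 and 0.53. None was called. The summed leukocyte level was 5.04 to 5.40 in MCK-PPARa and 5.01 to 5.33 in NTGa, and 4.75 to 5.08 in MCK-PPARb and 4.83 to 5.54 in NTGb. Their part in the values of the pair was not tested.

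As both members lie on the X chromosome, other X-linked microRNAs were counted. Of the 517 mouse-named assays, 479 were matched to a RefSeq microRNA gene, and 68 besides the pair had genes on the X chromosome alone. Of these, 24 were tested, and 0 were called against littermates in either line, where 2.24% of all assays were called in MCK-PPARa and 0% in MCK-PPARb. Between the lines 1 of 24 was called, miR-547, higher in the PPARb line (1.24, limma adjusted p = 0.0117, 5.22% of all assays called). It was also the 1 called in MCK-PPARa against MCK-PPARb (-2.09, adjusted p = 0.00422, 2.99% of all). In NTGa against NTGb the 1 called was miR-509-3p (2.69, adjusted p = 0.0339, 1.87% of all). In MCK-PPARa 15 of 24 had a positive value, with a median of 0.25, and in MCK-PPARb 13 of 24, with a median of 0.21. Those of lowest p were miR-509-3p (-2.26) and miR-20b (-1.90) in MCK-PPARa, and miR-547 (1.00) and miR-98 (1.34) in MCK-PPARb. The mean level of miR-509-3p was -3.77 in NTGa. It lay near the floor of -6.56 in MCK-PPARa (-6.03), NTGb (-6.46) and MCK-PPARb (-5.96). Over all assays 58.6% and 51.1% had a positive value. At an unadjusted p under 0.05 there were 6 and 2 of 24, where 16.4% and 8.58% of all assays had such a p.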

How the data were processed

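Total RNA of each soleus was run as TaqMan assays for 40 cycles, per the labels' protocols, on 2 cards, so the 24 samples were 12 animals. The authors deposited 1 Ct per well, not normalized, per the file headers and the values; the analysis software is not given in the sources used here. All sample columns were matched by name (0 unmatched). The level was the mean Ct of microRNAs detected (Ct under 35) in all 12 animals of the card (149 on A, 59 on B) minus the Ct, floored at -6.56 (A) and -5.66 (B). Assays detected in all 3 animals of a group were tested (268, 180 of them on card A) with limma 3.58.1 in R 4.3.3 over all 12 animals, two-sided, Benjamini-Hochberg adjusted over the 268, called under 0.05; the fit was tested on simulated data. Wells of an assay were averaged, an empty one beside a called one as Ct 40. Permutation tests enumerated all relabellings, and scipy 1.17.1 gave the correlations and the adjustment of these p-values. Named microRNAs are the pair, the listed microRNAs, the X-linked ones of lowest p and the 5 most alike to each member. Members and lists were chosen with earlier results of these data known. The labels call replicates biological, without saying that they came from separate litters. The main fit did not treat animals as paired by replicate number. Deviations of same-numbered animals correlated at -0.19 to 0.37 over 208 assays, a check that cannot exclude a pairing.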

Additional observations from a re-analysis of the deposited data

How the results depend on the processing

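miR-221 was not called in any comparison under any alternative that gave it a value: its log2 difference ran from 0.40 to 2.90 in MCK-PPARa against NTGa (15 alternatives, limma adjusted p 0.173 to 0.798) and from 0.79 to 2.80 in MCK-PPARb against NTGb, and from 1.86 to 2.90 and 0.38 to 1.79 with 1 animal left out. At a limit of Ct 32, or among microRNAs detected in all 12 animals, it left the test. With the replicate number as a block, miR-221 in MCK-PPARa kept 2.22 (adjusted p = 0.192); the block changed no call of either member. miR-222 against its littermates changed sign in MCK-PPARa with U6 snRNA (-0.025), without scaling (-0.023), against the other line's controls (-0.65) and against all 6 controls (-0.24). In MCK-PPARb it did so with the median reference (-0.18), with quantile normalization (-0.067) and at Ct 32 (-0.022), and ran from -0.072 to 0.14 with 1 animal left out. The difference of effects on miR-222 turned to -0.032, -0.35 and -0.078 with the endogenous controls, U6 and no scaling. miR-222 in NTGa against NTGb passed with the median reference (-1.10), without a filter (-0.81), with animal weights (-0.72) and with a trended robust eBayes (-0.81), whereas it shrank to -0.26 with U6 and -0.47 without scaling (adjusted p = 0.537 and 0.424). In MCK-PPARa against MCK-PPARb it passed with the last of these (-0.66) and without NTGb replicate 2 (adjusted p = 0.0287), and ran from -0.73 to -0.58 with 1 animal left out. The line difference of miR-222 lost its call with U6 (0.43) and without scaling (0.50), for which the cause was not tested, and kept it without any 1 animal (0.67 to 0.77). The ratio kept its direction in each line; the difference of its changes turned to -0.15 at Ct 32, where miR-221 in 7 animals is set to the limit. The likeness of miR-222 and miR-193b was -0.53 with group means removed. Each miR-221 value comes from a single well. On card B the wells of an assay differed by a median of 0.755 cycles at Ct 32 to 35, which is not the error of a single card A well. The part of such differences in the spread of miR-221 was not tested.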
